A study of Mus musculus with 22 samples.

Results

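Rpl14 and Rpl11, the ribosomal protein genes targeted by small interfering RNAs (siRNAs), are described here with 5 related genes across 22 libraries of mouse embryonic stem cells. The 7 genes are Rpl14, its pseudogene Rpl14-ps1, Rpl11, Rpl5, Rpl23, Rpl26 and Rps27l. They were taken by symbol from the 24819 genes of both expression tables, and all 7 were found in both and passed the filter on low values. The cells were of the E14 line, grown on gelatin with leukemia inhibitory factor (LIF) and harvested 3 days after transfection with DharmaFECT. The control libraries received siNT only. The libraries called siRpl14, siRpl11 and siDux received that siRNA together with siNT, and the pairs siRpl14+siRpl11 and siRpl14+siDux combined both. The labels give no genotype, clone or separate culture for a replicate, so the spread between replicates may be technical.

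Ribosomal proteins L5 and L11 join the 5S ribosomal RNA in a particle, the 5S RNP, before it enters the large ribosomal subunit. When ribosome assembly is disturbed, this particle is known to bind and inhibit Mdm2, the ubiquitin ligase that keeps p53 low. L23, L26 and the S27-like protein Rps27l are also known to bind Mdm2, while L14 is a large-subunit protein best known as a structural component. Mdm2 and Rps27l are both known as genes that p53 activates. The measurements address how much Rpl14 and Rpl11 mRNA each library had left and whether mRNAs of the other Mdm2-binding ribosomal proteins were raised beside them.

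Values are FPKM, fragment counts scaled for transcript length and library size. Set 1 (8 libraries) compared the Rpl14 and Rpl11 knockdowns and their pair with siNT, in duplicate. Set 2, from the same table, had 1 library for the control, for each single knockdown of Dux and Rpl14, and for that pair. Set 3, in a table of its own, repeated the design of set 2 in duplicate and added a lone siRpl11 and a lone siRpl14+siRpl11 library. The split of sets 1 and 2 rests on the style of the sample titles alone. Read depth is unknown, and set 3 listed more genes at 0 (50.5 to 56.2% a library) than the other sets (30.1 to 32.1%). All 8 embryonic stem cell markers checked (such as Klf4, Nanog and Esrrb) were detected. Their summed level was 7774 to 8689 FPKM in siNT of set 1 and lower in every other group of set 1, from 5205 FPKM in siRpl14 to 6779 FPKM in siRpl11. The 8 did not all move alike. With siRpl14, 3 were called lower and 1 higher (limma, adjusted p under 0.05), with siRpl11 4 and 1, and with both 6 and 1. Of all genes, 13.4, 28.4 and 25% were called lower and 18.1, 16 and 16.6% higher in these comparisons. The summed level of 8 fibroblast markers was at most 15.6 FPKM in any library, with Postn and Dcn at 0. In set 1 the summed trophectoderm markers were at 35.75 to 40.36 FPKM in siNT, 49.25 to 74.89 FPKM in siRpl14, 28.24 to 31.87 FPKM in siRpl11 and 26.06 to 26.16 FPKM with both. The part of these shifts in the results was not tested. In bulk RNA, fewer cells of one kind and less RNA per cell cannot be told apart.

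Near the transcription start the members differed in sequence features, and the stretches that carry them are shown because the genes are compared for whether they move together. In RefSeq promoter windows of build GRCm38.p6 (250 bases before to 50 after the start, 300 in all), 6 of the 7 genes had an entry and Rps27l had 2. Many ribosomal protein mRNAs begin in a pyrimidine run, the 5′ terminal oligopyrimidine element. A run of 8 or more pyrimidines, searched from 20 bases before the start to the end of the window, was in the Rpl14, Rpl11, Rpl26, Rpl5 and first Rps27l windows and not in the Rpl23 window. It was in 47 of 68 ribosomal protein promoters (69.1%) and in 24.3% of all 32851 windows. Relative to the annotated start, the run began at -8 in Rpl14 (14 bases), 13 in Rpl11 (17 bases) and 21 in Rpl26 (14 bases). In Rpl5 it began at -20 and in Rps27l at -12 (9 bases each), and both ended before the start. Only the Rpl14 run spanned the start, so the runs are not shown to be the first bases of these mRNAs. Capitals mark the run.
Rpl14 chr9:120571503-120571532 plus strand: ggcgggCCCTCTCTCTTCTCgctgagcgcc
Rpl11 chr4:136053357-136053386 minus strand: cggaagTCTCCCTCTCTCTTCCTgttctcc
Rpl26 chr11:68901581-68901610 plus strand: gtgtagTTCTCTTTCCTTTTgcggccatcg
Rpl5 chr5:107900502-107900531 plus strand: cagccaCTCTTTCTCacgtcgcttgcgtgc
Rps27l chr9:66946068-66946097 plus strand: tctccaCTCCTCCCCgccgcctctatcccg

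The letters CCGGAAGT, a core bound by ETS factors, were found on either strand in the Rpl11, Rpl26 and first Rps27l windows, in 11 of 68 ribosomal protein promoters (16.2%) and in 3.89% of all windows. Matches to the p53 half-site consensus were found in the second Rps27l window and in no other member window. That window held 2 matches, a number reached by 118 of 32851 windows (0.359%). At least 1 match was in 8.36% of windows. Capitals mark the match, which is a description of the letters and not a bound site.
Rpl11 ETS-type core, chr4:136053369-136053398 minus strand: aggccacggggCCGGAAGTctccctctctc
Rps27l ETS-type core, chr9:66946084-66946113 plus strand: ccgcctctatcCCGGAAGTtgctgaggggc
Rps27l p53 half-site, chr9:66946193-66946222 plus strand: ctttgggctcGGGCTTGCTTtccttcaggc
Rps27l p53 half-site, chr9:66946296-66946325 plus strand: gggcttgttgAGACTTGTCCgggcgacacg

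In the siNT libraries of set 1, Rpl14 was the most abundant member at 1484 ± 94.1 FPKM (SD, n = 2). Rpl23 followed at 1166 ± 182 FPKM, then Rpl26 at 890.9 ± 83.5, Rpl5 at 865.6 ± 118, Rpl11 at 745.3 ± 119 and Rps27l at 583.5 ± 111 FPKM. The libraries of Rpl26 and Rpl5 overlapped in level, as did those of Rpl5 and Rpl11 and those of Rpl11 and Rps27l. Rpl14-ps1 was far below them at 38.95 ± 0.65 FPKM.

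Rpl14 mRNA was depleted in all 11 libraries that received siRpl14, and the depth of the depletion varied most in set 1. In set 1, Rpl14 was at 1550 and 1417 FPKM in siNT, at 893.2 and 401.9 FPKM in siRpl14, and at 232 and 523.5 FPKM in siRpl14+siRpl11. In set 2 it was at 1025 FPKM in siNT, 354.3 FPKM in siRpl14 and 360.1 FPKM in siRpl14+siDux. The set 3 levels of Rpl14 were 1361 and 1094 FPKM in siNT, 329.5 and 302.1 FPKM in siRpl14, 353.3 and 278.6 FPKM in siRpl14+siDux and 216.9 FPKM in the lone siRpl14+siRpl11 library. No siRpl14 library reached the level of a siNT library of its set. As a share of the siNT mean of the same set, the 11 libraries held 15.6 to 60.2% with a median of 27.1%. The exception to a level under 50% was siRpl14 replicate 1 of set 1, at 60.2%, beside 27.1% in the other library of that pair. In the 6 libraries given other siRNAs without siRpl14, Rpl14 was at 82.9 to 106%.

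The set 1 fall of Rpl14 with siRpl14 was -1.31 ± 0.42 on the log2(FPKM + 1) scale (limma, adjusted p = 0.0479), and with both siRNAs it was -2.09 ± 0.42 (limma, adjusted p = 0.0086). In set 3 the fall was -1.95 ± 0.17 with siRpl14 (limma, adjusted p = 0.00672) and -1.96 ± 0.17 with siRpl14+siDux (limma, adjusted p = 0.00301). Adding siDux to siRpl14 left Rpl14 at a difference of -0.01 ± 0.17, with a 95% interval of -0.40 to 0.38. The set 1 call with siRpl14 alone is marginal: without siRpl14 replicate 2 the change was -0.73 (adjusted p = 0.269), and it was also lost when either siNT or either siRpl11 library was left out (Rpl14 adjusted p 0.0728 to 0.198). With both siRNAs the Rpl14 call was lost without siNT replicate 1 (adjusted p = 0.0632). The set 3 call of Rpl14 with siRpl14 was lost without siRpl14 replicate 1 (adjusted p = 0.0545) or replicate 2 (adjusted p = 0.0697).

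Rpl11 mRNA was depleted in all 6 libraries that received siRpl11. In set 1, Rpl11 was at 829.1 and 661.4 FPKM in siNT, 260.1 and 113 FPKM in siRpl11, and 98.42 and 249.3 FPKM in siRpl14+siRpl11. In set 3 it was at 907 and 773 FPKM in siNT, 161.4 FPKM in the lone siRpl11 library and 198.8 FPKM in the lone siRpl14+siRpl11 library. The 6 libraries held 13.2 to 34.9% of the siNT mean, with a median of 21.4%, and none overlapped siNT. In the combined group of set 1, replicate 1 was the lower of the pair for both targets, at 15.6% of siNT for Rpl14 and 13.2% for Rpl11.

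The set 1 fall of Rpl11 was -2.10 ± 0.46 with siRpl11 (limma, adjusted p = 0.00992) and -2.23 ± 0.46 with both siRNAs (limma, adjusted p = 0.00934). The first call was lost without siNT replicate 1 (Rpl11 adjusted p = 0.0741) or siRpl11 replicate 2 (adjusted p = 0.065), and the second without siNT replicate 1 (adjusted p = 0.0714). In set 3 the lone libraries gave -2.37 ± 0.17 for siRpl11 (limma, adjusted p = 0.00354) and -2.07 ± 0.17 for siRpl14+siRpl11 (limma, adjusted p = 0.00678). Those fits assume that a lone library varies like the replicated groups.

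**Figure D1:**
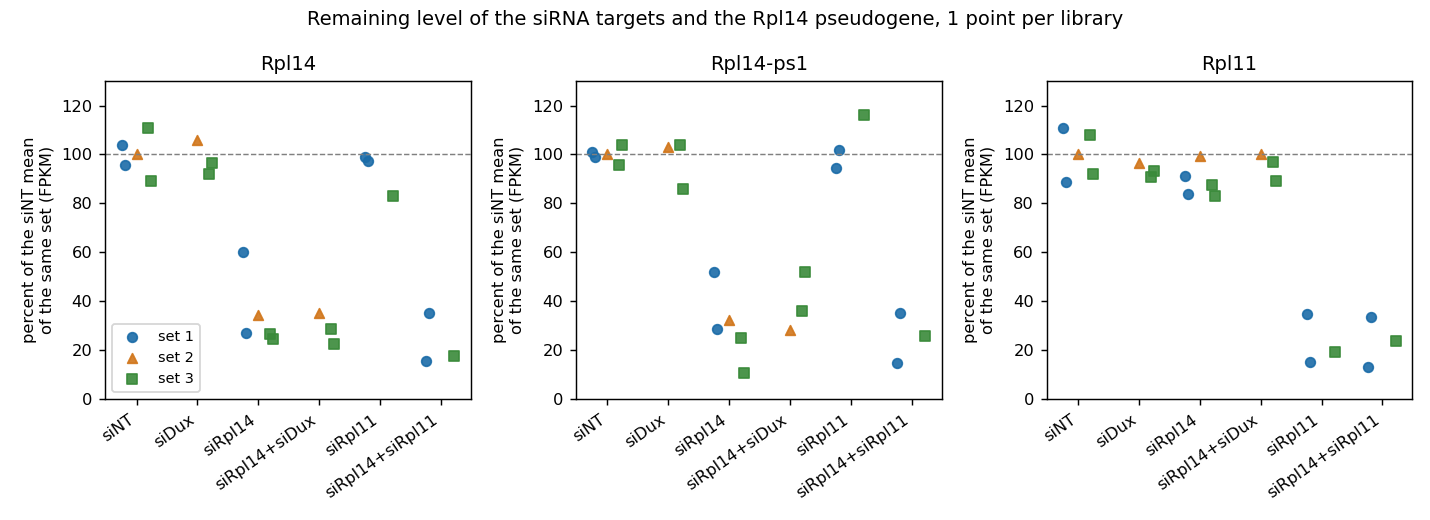
Level of Rpl14, Rpl14-ps1 and Rpl11 in each library as a percent of the siNT mean of the same set, by siRNA and set; each point is 1 library and the dashed line marks 100%. Rpl14 with siRpl14 sits at 15.6 to 60.2%, Rpl11 with siRpl11 at 13.2 to 34.9%, and Rpl14-ps1 with siRpl14 at 10.9 to 51.9%.

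No change of either target was detected with the siRNA against the other. With siRpl14 and no siRpl11, Rpl11 was at 681.2 and 623.6 FPKM in set 1, 638.3 FPKM in set 2, and 735.8 and 697.8 FPKM in set 3. These 5 libraries were at 83.1 to 99.2% of the siNT mean, all below it, and in set 1 one of the pair lay within the siNT range. The set 1 difference was -0.18 ± 0.46 (limma, adjusted p = 0.776), with a 95% interval of -1.25 to 0.88 that also holds a fall or rise of moderate size. The set 3 interval was narrower, -0.53 to 0.08. With siRpl11, Rpl14 was at 1465 and 1447 FPKM in set 1, inside the siNT range, and at 1018 FPKM in set 3, below both siNT libraries. The set 1 difference was -0.03 ± 0.42 (limma, adjusted p = 0.965).

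Rpl14-ps1, listed as a pseudogene of Rpl14, followed Rpl14 in set 1 and set 2. It was at 39.41 and 38.49 FPKM in siNT of set 1, 20.16 and 11.14 FPKM in siRpl14, 36.78 and 39.59 FPKM in siRpl11 and 5.709 and 13.71 FPKM in siRpl14+siRpl11. The groups with siRpl14 did not overlap siNT. Its level was a nearly fixed share of the Rpl14 level in the 12 libraries of sets 1 and 2, at 2.06 to 2.77%. In set 3 that share was 4.55 to 23.6% over 10 libraries. There Rpl14-ps1 was at 121.2 and 132 FPKM in siNT, 31.52 and 13.74 FPKM in siRpl14 and 45.44 and 65.66 FPKM in siRpl14+siDux. It fell by 1.32 ± 0.36 on the log2 scale with siRpl14 in set 1 (limma, adjusted p = 0.0284) and by 2.54 ± 0.37 in set 3 (limma, adjusted p = 0.0395). The first call did not hold when siRpl14 replicate 2 or either siNT replicate was omitted (Rpl14-ps1 adjusted p 0.11 to 0.174). The second was kept in 1 of 8 fits that left out a library (adjusted p 0.0422 to 0.204), and it was lost with the replicate block (adjusted p = 0.0503) and with plain moderation, without trend or robust variance (adjusted p = 0.107).

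The values of the pseudogene and of its parent may share reads. In GENCODE M21 (GRCm38, not the annotation of the authors), the pseudogene aligned to the Rpl14 coding sequence over 654 positions with 647 identical (98.9%). Of its 604 windows of 50 bases, 473 (78.3%) occur in the Rpl14 transcript. A stretch at coding bases 364 to 423 shows how close they are, with the 2 differing bases in capitals. Reads from such a stretch that cover neither differing base cannot be assigned to either with certainty. How the authors assigned such reads is not given in the sources used here.
Rpl14: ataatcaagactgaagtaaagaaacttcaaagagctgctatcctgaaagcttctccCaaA
Rpl14-ps1: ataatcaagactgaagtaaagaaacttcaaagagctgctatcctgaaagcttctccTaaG

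Of the 4 members that no siRNA targeted, Rps27l was the only one called higher in the main fit of set 1, and it was called with each knockdown. With siRpl11, Rpl23 and Rpl26 were also above both siNT libraries, without passing in that fit. Whether the members differed from each other was not tested. Rps27l was at 662 and 505.1 FPKM in siNT, 890.4 and 993.9 FPKM in siRpl14, 779.9 and 805.2 FPKM in siRpl11 and 901 and 826.9 FPKM in siRpl14+siRpl11. All 6 knockdown libraries were above both siNT libraries. In set 2, where no test was made, it was at 665.1 FPKM in siNT, 694.4 FPKM in siDux, 1127 FPKM in siRpl14 and 1038 FPKM in siRpl14+siDux.

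The Rps27l rise was 0.70 ± 0.14 (log2) with siRpl14 (limma, adjusted p = 0.0113), 0.45 ± 0.14 with siRpl11 (limma, adjusted p = 0.034) and 0.58 ± 0.14 with both (limma, adjusted p = 0.016). These are 162%, 136% and 148% of the siNT mean. With siRpl14, 3 of the 7 members passed the test (Rpl14 and Rpl14-ps1 lower, Rps27l higher), where 31.5% of 12129 tested genes passed (18.1% higher, 13.4% lower). With siRpl11, 2 of 7 passed (Rpl11 lower, Rps27l higher) against 44.3% of genes (16% higher, 28.4% lower). With both siRNAs, 4 of 7 passed against 41.6% of genes (16.6% higher, 25% lower). With 1 of 4 untargeted members called in each, their share was close to that of all genes called higher. The direction of calls over all genes depended on the scaling: 36% of the calls with siRpl11 and 39.8% with both were higher, and 51.5% and 51.9% after quantile normalization. The numbers of genes called with siRpl14, siRpl11 and both (3822, 5377 and 5043) fell to 752, 2084 and 1535 without siNT replicate 1 and to 1419, 2972 and 2379 without siNT replicate 2, and all genes called with siRpl14 to 791 without siRpl14 replicate 2, with siRpl11 to 1778 without siRpl11 replicate 2, and with both to 1307 without siRpl14+siRpl11 replicate 1.

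The Rps27l calls in set 1 were lost in several fits. With siRpl14 it was lost without siRpl14 replicate 2 (Rps27l 0.62, adjusted p = 0.0775). With siRpl11 it was lost without siNT replicate 2 (0.26, adjusted p = 0.142), siRpl11 replicate 1 (0.48, adjusted p = 0.0832) or siRpl11 replicate 2 (0.43, adjusted p = 0.145), and with no filter on low values (0.45, adjusted p = 0.051). With both it was lost without siNT replicate 2 (0.38, adjusted p = 0.0642) or siRpl14+siRpl11 replicate 1 (0.52, adjusted p = 0.106).

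In set 3 Rps27l was at 292.4 and 230.9 FPKM in siNT, 250.2 and 307.6 FPKM in siDux, 430.7 and 307.7 FPKM in siRpl14 and 457.4 and 305.7 FPKM in siRpl14+siDux. The lone siRpl11 and siRpl14+siRpl11 libraries were at 398.8 and 485.7 FPKM. Every library with siRpl14 or siRpl11 was above both siNT libraries, and siDux overlapped siNT. The separation did not extend to siDux: replicate 2 of siDux, at 307.6 FPKM, was level with replicate 2 of siRpl14 (307.7 FPKM) and of siRpl14+siDux (305.7 FPKM). No Rps27l difference passed the test there: it was 0.49 ± 0.26 with siRpl14 (limma, adjusted p = 0.521), 0.52 ± 0.26 with siRpl14+siDux (limma, adjusted p = 0.403), 0.62 ± 0.32 with siRpl11 (limma, adjusted p = 0.594) and 0.90 ± 0.32 with siRpl14+siRpl11 (limma, adjusted p = 0.396). Few genes of any kind passed in set 3: 0.66% of 13189 with siRpl14, where 2 of 7 members passed (Rpl14 and Rpl14-ps1), and 1.02% with siRpl14+siDux, where 1 of 7 passed (Rpl14). In the fits with the lone libraries, 0.0963% of 13497 genes passed with siRpl11 (1 of 7 members, Rpl11) and 0.119% with siRpl14+siRpl11 (2 of 7, Rpl14 and Rpl11). With siDux alone 0.00758% of genes and 0 of 7 members passed, Rps27l lying at 0.09 ± 0.26.

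Rpl5, the partner of Rpl11 in the 5S RNP, had no difference that passed the test with either knockdown. In set 1 it was at 948.8 and 782.3 FPKM in siNT, 771.4 and 631.6 FPKM in siRpl14, 948.2 and 789.1 FPKM in siRpl11 and 792.7 and 892.5 FPKM in siRpl14+siRpl11. Both siRpl14 libraries were below both siNT libraries, while the other groups lay within the siNT range. In set 2 Rpl5 was at 809.2 FPKM in siNT and 645.9 FPKM in siRpl14. In set 3 it was at 766.6 and 561.4 FPKM in siNT, 598.4 and 539 FPKM in siRpl14, and 521.6 and 504.8 FPKM in siRpl14+siDux. Across the sets the 8 libraries with siRpl14 and no siRpl11 were at 73 to 90.1% of the siNT mean, none above it.

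No Rpl5 difference passed the test. It was -0.30 ± 0.16 with siRpl14 in set 1 (limma, adjusted p = 0.164), with a 95% interval of -0.66 to 0.06, and -0.21 ± 0.17 in set 3, with an interval of -0.61 to 0.19. With siRpl11 in set 1 it was 0.01 ± 0.16, with an interval of -0.35 to 0.37.

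Rpl23, another Mdm2-binding protein of the large subunit, was higher in level in the siRpl11 libraries, but the difference did not pass. In set 1 it was at 1294 and 1038 FPKM in siNT, 1247 and 1212 FPKM in siRpl14, 1447 and 1441 FPKM in siRpl11 and 1423 and 1482 FPKM in siRpl14+siRpl11. The 4 libraries with siRpl11 were above both siNT libraries, and the siRpl14 pair lay between them. In set 2 Rpl23 was at 1091 FPKM in siNT, 1254 FPKM in siRpl14 (115%) and 1239 FPKM in siRpl14+siDux (114%). In set 3 the siNT libraries were at 1252 and 985.3 FPKM, siRpl14 at 1163 and 1053 FPKM, siRpl14+siDux at 992 and 1018 FPKM (88.7 and 91% of the siNT mean), and the lone siRpl11 library at 1314 FPKM. The lone siRpl14+siRpl11 library, at 1186 FPKM, was inside the siNT range.

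The Rpl23 difference in set 1 was 0.32 ± 0.12 with siRpl11 (limma, adjusted p = 0.0679) and 0.33 ± 0.12 with both (limma, adjusted p = 0.0654). It was 0.08 ± 0.12 with siRpl14 (limma, adjusted p = 0.613). After quantile normalization Rpl23 passed in all 3 (0.35, 0.37 and 0.37, adjusted p 0.0208 to 0.0248), and without siNT replicate 1 it passed with siRpl11 and with both (0.48 in each, adjusted p 0.0329 and 0.0376). With the libraries of sets 1 and 2 in 1 fit, Rpl23 also passed with siRpl11 (0.34, adjusted p = 0.0347) and with both (0.34, adjusted p = 0.0334).

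Rpl26, which is known to bind Mdm2 and also the p53 mRNA, was abundant in every library of sets 1 and 2 and was listed near 0 in 6 libraries of set 3. In set 1 it was at 950 and 831.9 FPKM in siNT, 771 and 703.4 FPKM in siRpl14, 1085 and 1159 FPKM in siRpl11 and 827.5 and 1126 FPKM in siRpl14+siRpl11. The siRpl14 pair was below and the siRpl11 pair above both siNT libraries. Neither difference passed: -0.27 ± 0.16 with siRpl14 (limma, adjusted p = 0.209) and 0.33 ± 0.16 with siRpl11 (limma, adjusted p = 0.114). With the libraries of sets 1 and 2 in 1 fit, Rpl26 passed with siRpl14 (-0.40, adjusted p = 0.0341). In set 2 it was at 898.5 FPKM in siNT, 780.2 FPKM in siDux, 573.6 FPKM in siRpl14 and 566.1 FPKM in siRpl14+siDux.

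In set 3 Rpl26 was listed at 333.1 and 582.4 FPKM in siNT, 400.7 FPKM in siDux replicate 1 and 468.1 FPKM in the siRpl11 library. In siDux replicate 2 it was listed at 0.3413 FPKM, and in the 5 libraries with siRpl14 at 0.1275 to 0.2754 FPKM. Such values were listed for other genes too, but for few ribosomal protein genes. Of 79 of these, 2 had a set 3 library under 1 FPKM: Rpl26 in 6 libraries and Rpl30 in 2. Of 1650 genes that were steady in sets 1 and 2 (a mean of at least 50 FPKM and under 3-fold range), 155 were under 1 FPKM in at least 1 library of set 3, and 29 of those reached 50 FPKM in another library. Rpl26 was the 1 gene of the 1650 that was under 1 FPKM in all siRpl14 libraries and in neither siNT library, and 3 genes had the opposite pattern. Because a value near 0 for an otherwise abundant mRNA can be a failed estimate, no fold is given, and the limma result for Rpl26 with siRpl14 did not pass (adjusted p = 0.163), but it passed without siDux replicate 1 (adjusted p = 0.0047) or siDux replicate 2 (adjusted p = 0.00148).

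**Figure D2:**
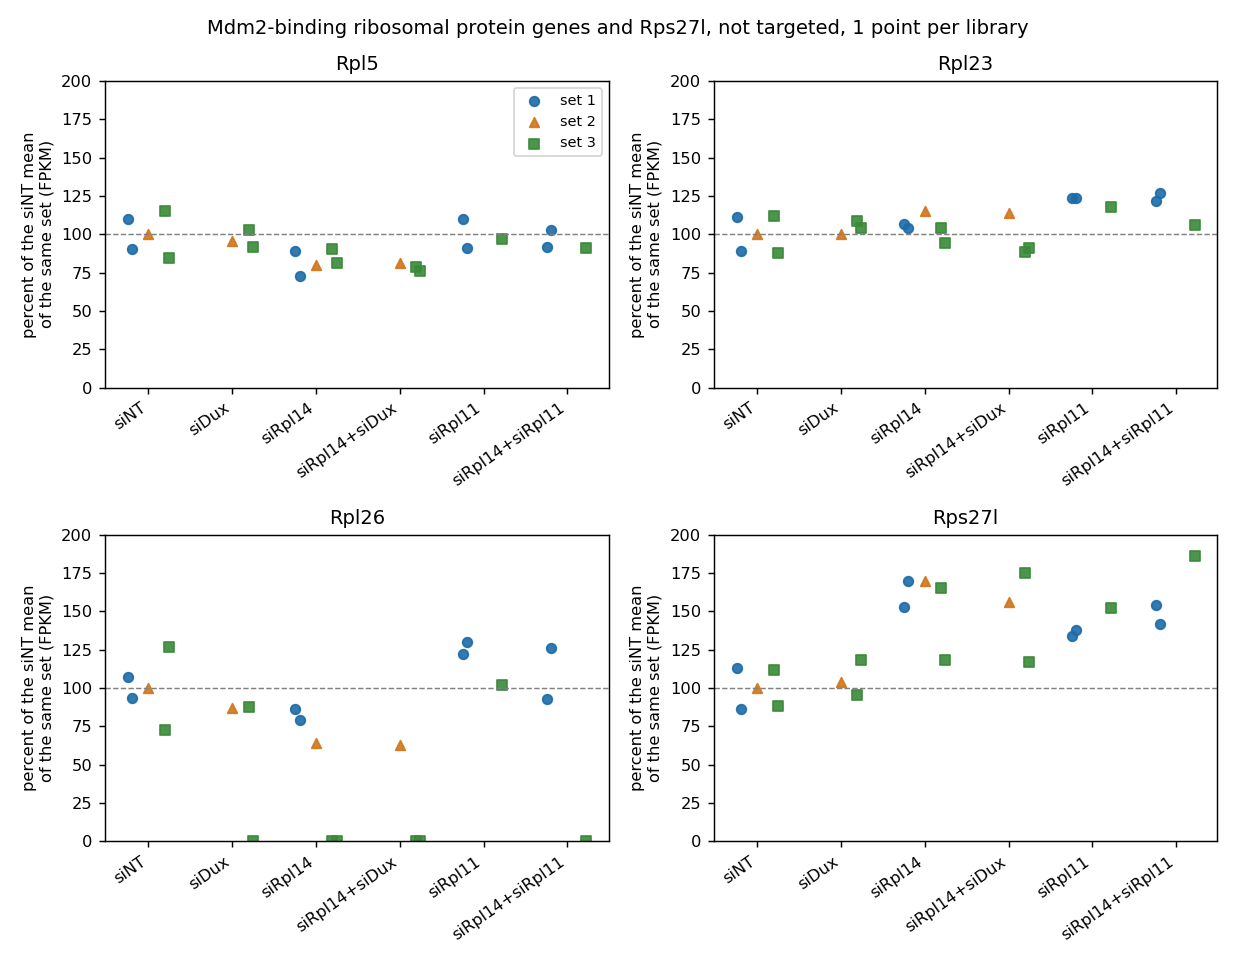
Level of Rpl5, Rpl23, Rpl26 and Rps27l in each library as a percent of the siNT mean of the same set, by siRNA and set; each point is 1 library. Rps27l is at 117 to 186% in every library with siRpl14 or siRpl11 and at 95.6 to 118% with siDux alone. Rpl5 with siRpl14 alone is at 73 to 90.1%, and Rpl26 is near 0 in 6 libraries of set 3.

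**Figure D3:**
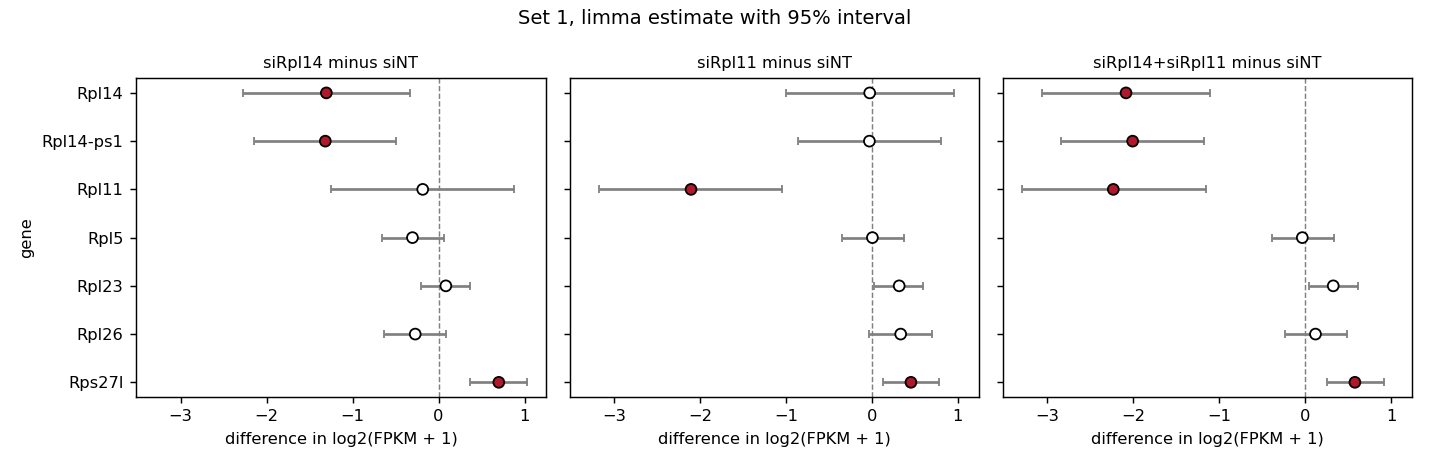
Difference from siNT in log2(FPKM + 1) for the 7 genes in set 1, one panel per siRNA group, with the limma estimate (point), its 95% interval (bar) and filled points for an adjusted p of at most 0.05. Apart from the siRNA targets and Rpl14-ps1, only Rps27l is filled, at 0.70, 0.45 and 0.58.

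The comparisons between knockdowns gave little for the untargeted members. Adding siRpl11 to siRpl14 in set 1 lowered Rpl11 (-2.05 ± 0.46, limma, adjusted p = 0.0387), the 1 of 7 members that passed against 7.24% of genes, and that call was lost in 5 of the 8 fits that left out a library (Rpl11 adjusted p 0.0859 without either siNT library, 0.182 and 0.201 without siRpl14 replicates 1 and 2, and 0.173 without siRpl14+siRpl11 replicate 1). It was also lost with no filter (0.0678), a filter of 5 FPKM (0.0509), median-ratio rescaling (0.0545) and the replicate block (0.0901). Rpl14 differed by -0.78 ± 0.42 (limma, adjusted p = 0.317), Rpl26 by 0.39 ± 0.16 (limma, adjusted p = 0.187) and Rps27l by -0.12 ± 0.14 (limma, adjusted p = 0.654). Adding siRpl14 to siRpl11 called 0 of 12129 genes with limma, Rpl14 included (-2.06 ± 0.42, adjusted p = 1), while 387 genes had an unadjusted p under 0.05. Adding siDux to siRpl14 in set 3 called 0 of 7 members and 0.0152% of genes. An interaction term, fitted after the data were seen, asked whether the combined change departed from the sum of the single ones. For Rps27l it was -0.58 ± 0.20 (limma, adjusted p = 0.113), and 0 of 7 members passed against 4.49% of genes. Outside the members, the term passed for Mdm2 (-2.44 ± 0.39, limma, adjusted p = 0.0259). It did not pass for the p53 gene Trp53 (-1.06 ± 0.37, limma, adjusted p = 0.115). Of 10 genes that act on the 5S RNP, 2 were lower, beside 322 of all 12129 genes. The interaction was not run under the alternative settings.

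Mdm2 and Trp53 (the p53 gene) rose with each knockdown in set 1, and Mdm2 reached its highest levels of set 1 with siRpl14. Mdm2 was at 66.01 and 47.65 FPKM in siNT of set 1, 244.1 and 410.3 FPKM in siRpl14, 114 and 158.8 FPKM in siRpl11 and 155.8 and 121.5 FPKM in siRpl14+siRpl11. All knockdown libraries were above siNT, and both siRpl14 libraries were above every library with siRpl11. The rise was 2.48 ± 0.28 with siRpl14 (limma, adjusted p = 0.00182) and 1.25 ± 0.28 with siRpl11 (limma, adjusted p = 0.0102). With siRpl11 added to siRpl14, Mdm2 was lower than with siRpl14 alone by 1.20 on the log2 scale (-1.20 ± 0.28, limma, adjusted p = 0.0419). That Mdm2 difference did not pass without either siNT library, siRpl14 replicate 2 or either siRpl14+siRpl11 library (adjusted p 0.0756 to 0.185), nor with no filter, either rescaling or the replicate block (adjusted p 0.0653 to 0.0718). Trp53 was at 142.9 and 176.7 FPKM in siNT, 256.9 and 396.1 FPKM in siRpl14 and 431.5 and 631.1 FPKM in siRpl11. It rose by 1.00 ± 0.26 with siRpl14 (limma, adjusted p = 0.0254) and by 1.71 ± 0.26 with siRpl11 (limma, adjusted p = 0.00371). The Mdm2 rise with siRpl14 and the Trp53 rise with siRpl11 passed under every alternative, leaving out each library included. The Mdm2 call with siRpl11 was lost without siNT replicate 2 (adjusted p = 0.0726) or siRpl11 replicate 2 (adjusted p = 0.0643), and the Trp53 call with siRpl14 without either siNT library or siRpl14 replicate 2 (adjusted p 0.0713 to 0.156). Cdkn1a, the p53 target that halts the cell cycle, passed in no knockdown comparison, and its differences varied in sign. In set 1 it was 0.27 ± 0.28 with siRpl14 (limma, adjusted p = 0.474), -0.47 ± 0.28 with siRpl11 (limma, adjusted p = 0.204) and -0.24 ± 0.28 with both (limma, adjusted p = 0.514).

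In sets 2 and 3, Mdm2 was again far above siNT in the libraries with siRpl14 and no siRpl11. In set 2 it was at 51.38 FPKM in siNT, 471.8 FPKM in siRpl14 and 526.3 FPKM in siRpl14+siDux, and Trp53 was at 197, 387.1 and 379 FPKM. In set 3 Mdm2 was at 20.23 and 14.91 FPKM in siNT, 143.3 and 127.6 FPKM in siRpl14, and 156.9 and 172.3 FPKM in siRpl14+siDux. The rise passed with siRpl14 (2.89 ± 0.37, limma, adjusted p = 0.0229) and with siRpl14+siDux (3.17 ± 0.37, limma, adjusted p = 0.01). The Mdm2 differences of the lone siRpl11 library (1.71 ± 0.45, limma, adjusted p = 0.271) and of the lone siRpl14+siRpl11 library (1.40 ± 0.45, limma, adjusted p = 0.349) did not pass. No Trp53 difference passed in set 3: it was 0.42 ± 0.43 with siRpl14 (limma, adjusted p = 0.746), 0.58 ± 0.43 with siRpl14+siDux (limma, adjusted p = 0.593) and 1.42 ± 0.52 for the lone siRpl11 library (limma, adjusted p = 0.443). Cdkn1a was at 275% of siNT in the set 2 siRpl14 library. In set 3 it was at a mean of 248% with siRpl14 (1.29 ± 0.44, limma, adjusted p = 0.293) and at 172% in the lone siRpl11 library (0.78 ± 0.54, limma, adjusted p = 0.73), so the set 1 direction with siRpl11 was not seen there.

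Within set 1 the library with less target left had more of these mRNAs in each of the 3 knockdown groups. In siRpl14, the replicate with Rpl14 at 401.9 FPKM had 410.3 FPKM of Mdm2 and 993.9 FPKM of Rps27l, and the one at 893.2 FPKM had 244.1 and 890.4 FPKM. In siRpl11, the replicate with Rpl11 at 113 FPKM had 158.8 FPKM of Mdm2 and 805.2 FPKM of Rps27l, and the one at 260.1 FPKM had 114 and 779.9 FPKM. In siRpl14+siRpl11, replicate 1 was lower for both targets and had 155.8 FPKM of Mdm2 and 901 FPKM of Rps27l, against 121.5 and 826.9 FPKM in replicate 2. Trp53 and Cdkn1a followed the same order in the 3 pairs. Rpl5 was lower where less target was left, and so was Rpl23 by small amounts, such as 1441 against 1447 FPKM in siRpl11. Rpl26 was lower there in the siRpl14 and siRpl14+siRpl11 pairs but higher in the siRpl11 pair (1159 against 1085 FPKM). With 3 pairs this is a description, and in set 3, where the siRpl14 pair had nearly equal Rpl14 (329.5 and 302.1 FPKM), the replicate with less Rpl14 had less Mdm2 and less Rps27l. In the siRpl14+siDux pair of set 3 the one with less Rpl14 (278.6 FPKM) had more Mdm2 (172.3 against 156.9 FPKM) and less Rps27l (305.7 against 457.4 FPKM).

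**Figure D4:**
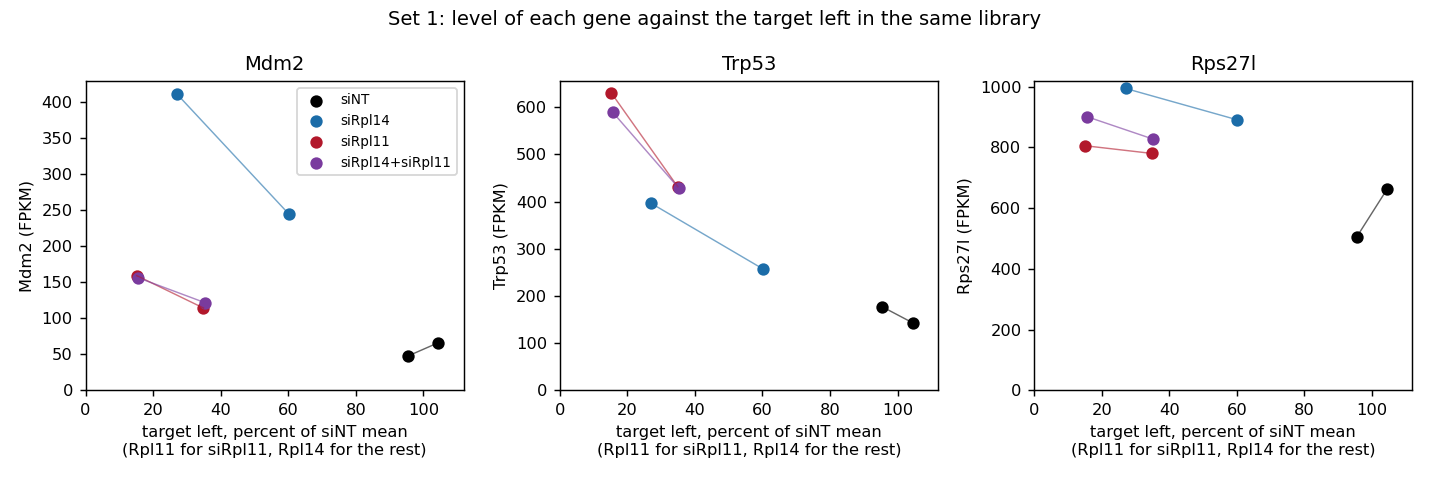
Level of Mdm2, Trp53 and Rps27l (FPKM) against the target mRNA left in the same set 1 library (percent of the siNT mean, Rpl11 for siRpl11 and Rpl14 for the other groups); lines join the 2 replicates of a group. In each knockdown pair the point with less target left is the higher one, as for Mdm2 at 410.3 against 244.1 FPKM in siRpl14.

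Other genes of the same route were counted from lists by role. Of 13 further Mdm2-binding ribosomal protein genes, 0 were higher and 1 lower with siRpl14 in set 1 (Rpl22, -0.50 ± 0.16, limma, adjusted p = 0.043). With siRpl11, 2 were higher (Rps15, 0.43 ± 0.14, and Rps27a, 0.38 ± 0.13) and 0 lower, and with both siRNAs 1 was higher and 1 lower. Of all genes, 18.1, 16 and 16.6% were called higher and 13.4, 28.4 and 25% lower in these 3 comparisons. The median difference of the 13 genes was -0.21, 0.04 and -0.04 in the same comparisons, beside 0.03, -0.11 and -0.07 over all genes. Quantile normalization turned the first and last medians to 0.04 and 0.00 and raised the number called to 5, 4 and 5, so no direction is read for this list. That scaling also moved the median of all genes with siRpl11 from -0.11 to 0.01.

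The other large- and small-subunit genes were counted in lists that include the ribosomal proteins among those 13, beside 31.5% of all genes called with siRpl14 and 44.3% with siRpl11. With siRpl14, 0 of 42 large-subunit genes were higher and 2 lower (Rpl3 at -0.96 ± 0.28 and Rpl22), and 0 of 32 small-subunit genes passed in either direction. With siRpl11, 2 large-subunit genes were higher (Rpl30 at 0.63 ± 0.17 and Rpl23a at 0.38 ± 0.13) and 1 lower (Rpl3 at -1.05 ± 0.28), and 4 small-subunit genes were higher (such as Rps12 at 0.43 ± 0.12). Quantile normalization raised these counts to 6 and 8 with siRpl14 and to 8 and 10 with siRpl11. Of the genes named here from these lists, each lost its call without 1 or more libraries: Rpl22 and Rpl3 with siRpl14 without siNT replicate 1 or siRpl14 replicate 2, and Rps15, Rps27a, Rpl23a, Rpl30, Rps12 and Rpl3 with siRpl11 without siRpl11 replicate 2 or without 1 of the siNT libraries, with adjusted p up to 0.226 for Rpl22. In set 3, 0 genes of either list passed in any comparison with siNT. By size of difference among 79 ribosomal protein genes, counted from the highest, Rpl23 ranked 9, Rpl11 39, Rpl26 55, Rpl5 62 and Rpl14 78 with siRpl14. With siRpl11, Rpl26 ranked 12, Rpl23 17, Rpl5 53, Rpl14 58 and Rpl11 79.

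**Figure D5:**
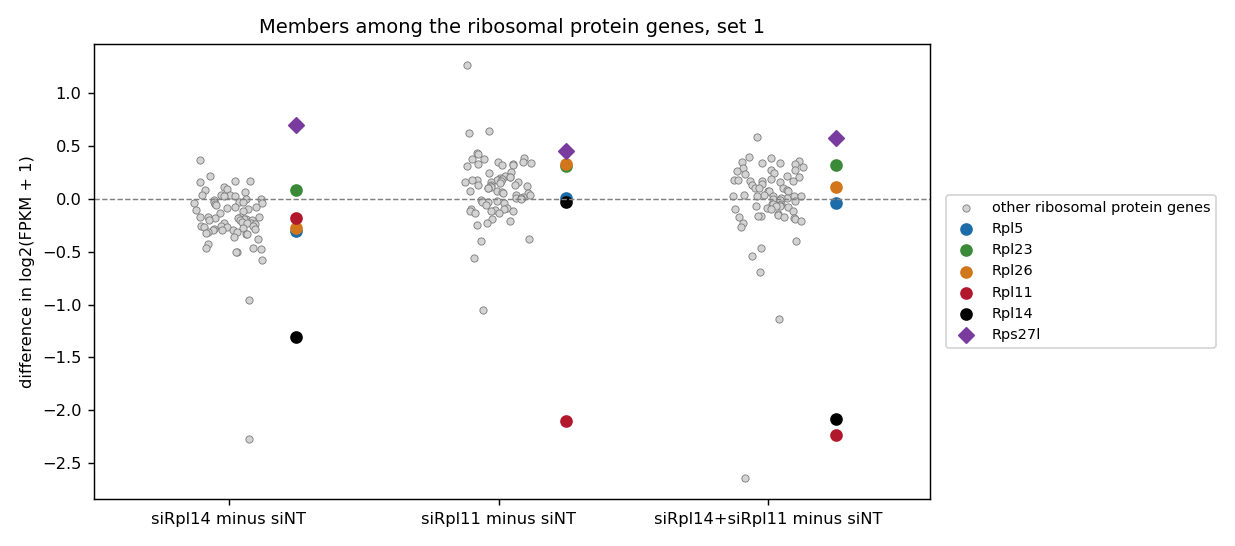
Difference from siNT in log2(FPKM + 1) in set 1 for Rpl5, Rpl23, Rpl26, Rpl11, Rpl14 and Rps27l (coloured) beside the other ribosomal protein genes (grey, spread sideways at random), with 1 column per siRNA group. Rpl14 at -1.31 and Rpl11 at -2.10 are among the lowest points of their columns, Rpl5, Rpl23 and Rpl26 lie within the grey points, and Rps27l is at 0.70 with siRpl14.

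Several genes that act on the 5S RNP were higher in set 1, and none passed in set 3. Of 10 tested, 3 were higher and 0 lower with siRpl14: Surf2, a regulator of the free particle, at 0.67 ± 0.12, Rpf2, an assembly factor that places the particle in the subunit, at 0.60 ± 0.10, and Heatr3, an importer of L5, at 0.40 ± 0.12. With siRpl11, 5 were higher and 0 lower, among them Grwd1 at 0.88 ± 0.20, Surf2 at 0.82 ± 0.12 and Rrs1, the partner of Rpf2, at 0.81 ± 0.18. With both, 6 were higher and 0 lower. The shares of all genes called higher in these comparisons were 18.1%, 16% and 16.6%. The medians of the list were 0.37, 0.51 and 0.54. In set 3, 0 of the 10 passed in any comparison with siNT, and the list's medians were -0.04 with siRpl14 (5 of 10 above 0), -0.03 with siRpl14+siDux and 0.04 for each of the lone siRpl11 and siRpl14+siRpl11 libraries. In set 1 without siNT replicate 1 the numbers called fell to 1, 2 and 2, and to 1 without siRpl14 replicate 2, to 2 without siRpl11 replicate 2 and to 2 without siRpl14+siRpl11 replicate 1. Rpf2 with siRpl14 and Surf2 with siRpl11 passed under every alternative, while Heatr3 was lost under several, such as quantile normalization (adjusted p = 0.0882) and the loss of either siRpl14 library (adjusted p 0.112 and 0.0894). Of 9 genes of the Mdm2 and p53 route, counted beside the same shares of all genes, 6 were higher with siRpl14 (such as Ccng1, a p53 target, at 1.31 ± 0.27), 5 with siRpl11 (such as Npm1, the nucleolar protein nucleophosmin, at 0.85 ± 0.12) and 6 with both, and 0 were lower. In set 3, 2 of 8 were higher with siRpl14 (Mdm2 and Ccng1), 1 with siRpl14+siDux (Mdm2) and 0 for either lone library. The 6 with siRpl14 became 2 and 3 when the first and second siNT library was left out and 1 when siRpl14 replicate 2 was. The 5 with siRpl11 became 3 without siRpl11 replicate 2, and the 6 with both became 3 without siRpl14+siRpl11 replicate 1.

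The genes whose profiles were most like those of the members were found over the 12 libraries of sets 1 and 2, after the mean of each set was taken off. The measure was the root-mean-square difference of log2(FPKM + 1) across 8251 genes with a mean of at least 5 FPKM. For Rpl14 the nearest was Rpl14-ps1 at 0.10, then Fxyd6 at 0.49 and Zfp42 at 0.54, where the median gene was at 0.94. For Rpl11 the nearest were Sox15 at 0.30, Ap1m2 at 0.31 and Cldn4 at 0.35 (median 0.94). For Rps27l they were Gm12669 and Usp38, both at 0.08, and Fam207a at 0.09 (median 0.35). The Rpl14 and Rpl11 profiles were set mainly by which libraries received their siRNAs, so nearness to them marks genes low in the same libraries. Rps27l varied less, so genes that varied little also lie near it. Shared regulation was not tested.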

How the data were processed

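The authors deposited FPKM values in 2 tables with 1 column per library. Per the submitters' processing notes, reads were handled with STAR and Cuffnorm on mm9. Their versions, the annotation, strand setting and normalization: not given in the sources used here. Each test of the main fits was made within a set. On log2(FPKM + 1), models were fitted with limma 3.58.1 (R 4.3.3, statmod 1.5.0) and moderated with a robust trend. This scale understates changes of low genes. A gene needed 1 FPKM or more in 2 libraries, and a call an adjusted p under 0.05 (Benjamini-Hochberg, all genes tested). Errors are SD for levels and SE for differences. Set 2 has 1 library per group and was not tested. The comparison of siRpl14 with siNT was tested on simulated data in the main fits of sets 1 and 3. The other comparisons and the fit with the lone libraries were not. All 7 members are named in every comparison; from each list, up to 3 called genes with the largest difference (1 is not reported here). The members and lists were chosen with earlier results of these data known. Results for Mdm2, Trp53 and genes named from lists were added to the alternatives after the data were seen. Rescaling, pseudocount, filter, moderation, replicate block and left-out libraries were the alternatives. Further ones were sets 1 and 2 in 1 fit with the set as a term, and all 10 libraries of set 3 in 1 fit. Replicate numbers are not stated to pair the libraries and were not used as pairs. Sequences come from RefSeq (GRCm38.p6) and GENCODE M21, not the build of the tables.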

Additional observations from a re-analysis of the deposited data

How the results depend on the processing

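In set 1, Rpl14 in siRpl14 did not pass with a pseudocount of 0.1 (-1.31, adjusted p = 0.0502), no filter (-1.31, 0.0784), quantile normalization (-1.15, 0.0721) or plain moderation (-1.31, 0.0545). In set 3 plain moderation also ended the calls of Rpl14 with siRpl14 (-1.95, 0.0799), with siRpl14+siDux (-1.96, 0.0595) and in the lone siRpl14+siRpl11 library (-2.49, 0.148), of Rpl14-ps1 with siRpl14 (-2.54, 0.107) and of Rpl11 in the lone siRpl11 (-2.37, 0.17) and siRpl14+siRpl11 (-2.07, 0.15) libraries. Of all genes, 878 differed between siRpl14+siRpl11 and siRpl14, against 491 with a filter of 5 FPKM and 463 after quantile normalization. With siRpl14 in set 1 the number rose from 3822 to 5904 with set 2 in the fit. In set 3 the number with siRpl14 was 87, but 54 without a filter and 36 with plain moderation. With siDux it was 1, but 2 at a pseudocount of 5 or over all 10 libraries and 3 with plain moderation. Between siRpl14+siDux and siRpl14 it was 2, but 16 and 1 at pseudocounts of 0.1 and 5, 10 with a filter of 5 FPKM and 19 with plain moderation. For the lone siRpl11 library it was 13, but 45 at a pseudocount of 0.1, 37 without a filter and 6 with plain moderation, and for the lone siRpl14+siRpl11 library 16, but 57, 32 and 8, and 10 after median-ratio rescaling.

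The replicate numbers are not stated to pair the libraries, and same-numbered libraries deviated from their group means with r from -0.45 to 0.47 in set 1 and 0.04 to 0.06 in set 3. With the replicate number as a block, Rpl14 with siRpl14 in set 1 was at -1.31 (adjusted p = 0.0772), the genes that differed between siRpl14+siRpl11 and siRpl14 numbered 539, those between siRpl14+siDux and siRpl14 in set 3 numbered 1 and those with siDux 0.

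Reversed signs all belong to differences that did not pass. Median-ratio rescaling gave Rpl14 0.05 and Rpl14-ps1 0.04 with siRpl11, Rpl5 0.00 with both siRNAs and Rpl23 -0.03 and Mdm2 -0.01 between both siRNAs and siRpl11 in set 1. In set 3 it gave Rpl23 0.05 with siRpl14, Rpl14 0.02 between siRpl14+siDux and siRpl14, and Rpl5 0.10 and 0.04 for the lone siRpl11 and siRpl14+siRpl11 libraries. Quantile normalization gave Rpl5 0.12 with both siRNAs and 0.03 between both and siRpl11, Rpl23 -0.01 between both and siRpl14, and Rpl23 -0.12 for the lone siRpl14+siRpl11 library.

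Leaving out 1 library gave 752 to 3851 genes with siRpl14 in set 1, 1778 to 5592 with siRpl11, 1307 to 5255 with both, 79 to 670 between both and siRpl14, and 0 to 1 between both and siRpl11. In set 3 it gave 8 to 45 with siRpl14, 26 to 90 with siRpl14+siDux, 0 to 3 between these, 0 with siDux, and 3 to 5 and 5 to 10 for the lone libraries. For single genes of set 1, the lowest and highest values with 1 library left out were, with siRpl14, -1.88 and -0.73 for Rpl14 and -0.07 and 0.24 for Rpl23. With siRpl11 they were -2.70 and -1.51 for Rpl11, -0.09 and 0.04 for Rpl14, -0.08 and 0.02 for Rpl14-ps1 and -0.13 and 0.14 for Rpl5. With both siRNAs they were -0.17 and 0.10 for Rpl5 and -0.10 and 0.34 for Rpl26, and between both and siRpl11 -0.79 and 0.54 for Rpl11, -0.17 and 0.09 for Rpl5, -0.02 and 0.04 for Rpl23, -0.44 and 0.01 for Rpl26, -0.21 and 0.27 for Mdm2 and -0.33 and 0.22 for Trp53. In set 3 they were, with siRpl14, -2.11 and -1.79 for Rpl14, -0.43 and 0.02 for Rpl5 and -0.18 and 0.17 for Rpl23. With siDux they were -0.23 and 0.08 for Rpl14, -0.21 and 0.05 for Rpl14-ps1, -0.25 and 0.20 for Rpl5, -0.07 and 0.28 for Rpl23 and -0.08 and 0.26 for Rps27l. With siRpl14+siDux they were -0.22 and 0.01 for Rpl11 and -0.32 and 0.03 for Rpl23, and between it and siRpl14 -0.18 and 0.16 for Rpl14, -0.01 and 0.12 for Rpl26 and -0.25 and 0.33 for Rps27l. For the lone siRpl11 library they were -0.25 and 0.19 for Rpl5 and -0.31 and 0.49 for Rpl26, and for the lone siRpl14+siRpl11 library -0.34 and 0.11 for Rpl5 and -0.08 and 0.27 for Rpl23. With 2 libraries a group and unknown depth, small differences between the members could not be resolved.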
